A study of Mus musculus with 1600 samples.

Results

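Cells of the E12.5 mouse hind limb that held Scx RNA and little Sox9 RNA were set against cells that held Sox9 RNA and little Scx RNA. The members were chosen by the measured levels of these 2 genes. A cell was called Scx-only with at least 200 CPM of Scx and under 50 CPM of Sox9, and Sox9-only with at least 200 CPM of Sox9 and under 50 CPM of Scx. CPM is a gene's count divided by the cell's total count and scaled to 1000000. Of 158 E12.5 cells with at least 1000 detected genes, 35 were Scx-only and 25 were Sox9-only, 60 in all. Another 19 cells held at least 200 CPM of both genes, 34 held under 50 CPM of both, and 45 lay between the limits.

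All cells came from hind limbs of C57BL/6 embryos that carried a SCX-GFP transgene, a genotype that both classes share. Hind limbs of littermates were pooled and dissociated, and single cells were captured on the Fluidigm C1 and sequenced from Nextera XT libraries. The labels' protocols name no sort on GFP. E12.5 is therefore 1 sample, and its 160 cells were split over 4 library pools of 40, numbered 4 to 7, which are a technical split of that sample. Cells are not replicates, so every difference below is given as a value, without a p-value. Intervals are 95% Poisson intervals of summed counts and cover counting error of reads only. They leave out the spread between cells, and reads multiplied by PCR are not independent molecules.

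Scx encodes scleraxis, a basic helix-loop-helix transcription factor of tendon and ligament progenitors. Sox9 encodes an HMG-box transcription factor required for cartilage formation, and with its partners Sox5 and Sox6 it drives genes of the cartilage matrix. In the developing limb, progenitors that express both genes contribute to the sites where tendon joins cartilage, and the joint-forming interzone between cartilage elements is marked by Gdf5.

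**Figure D1:**
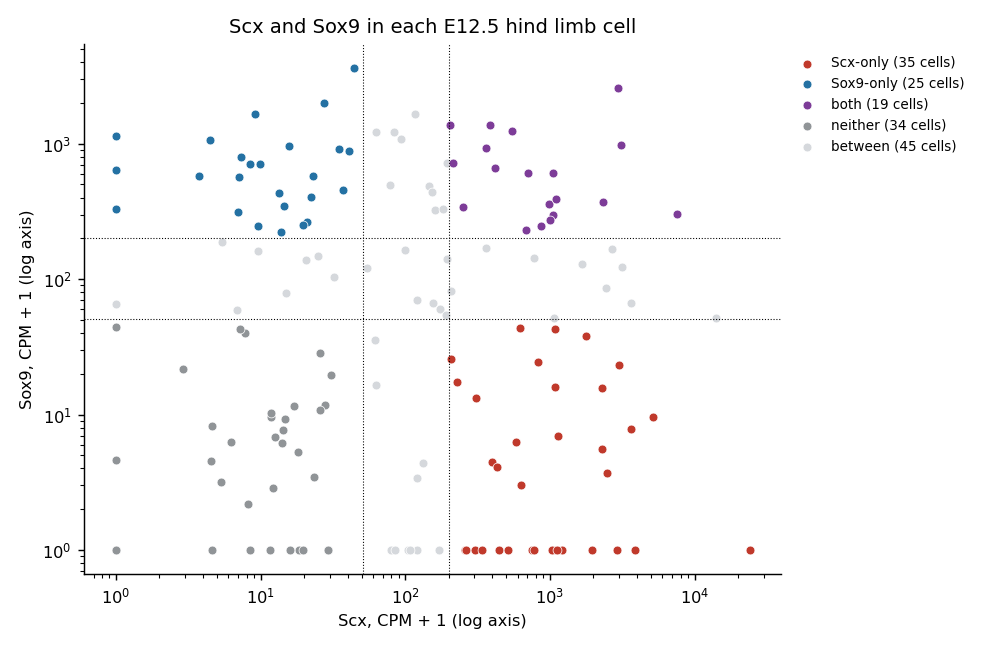
Sox9 CPM plus 1 (log axis) against Scx CPM plus 1 (log axis) in each of the 158 E12.5 cells, coloured by class, with dotted lines at the limits of 50 and 200 CPM. The 35 Scx-only cells lie at the lower right, the 25 Sox9-only cells at the upper left, and 45 cells in the bands between the limits.

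Scx and Sox9 chose the cells, so their own values only describe the choice. Scx-only cells held 206 to 23993 CPM of Scx, with a median of 1033 CPM. Sox9-only cells held 222 to 3618 CPM of Sox9, with a median of 575.02 CPM. No Sox9 count was found in 16 of the 35 Scx-only cells, and no Scx count in 3 of the 25 Sox9-only cells. At the edges, the lowest Scx value inside the Scx-only class was 206 CPM and the nearest cell outside had 171 CPM; the highest Sox9 value inside was 42.4 CPM and the nearest outside 50.3 CPM. For the Sox9-only class, the lowest Sox9 value inside was 222 CPM with 188 CPM outside, and the highest Scx value inside was 43.4 CPM with 61.9 CPM outside. Scx (chr15:76457452-76459458, plus strand, mm10) lies inside the minus-strand gene Bop1 (chr15:76452989-76477277), a ribosome biogenesis factor, and counts of the pair may be mixed where strand was not used. Bop1 had 55.7 CPM in Scx-only cells and 76.6 CPM in Sox9-only cells, a log2 ratio of -0.43.

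The groups differed in depth. Scx-only cells had a median of 347125 counts and 4996 detected genes, against 202299 counts and 4180 genes in Sox9-only cells. After each cell was thinned to 50000 counts, the medians were 3669 genes over 34 Scx-only cells and 3257 genes over 24 Sox9-only cells, and 395 genes were called higher and 72 lower by the rule given below. Of the 405 and 89 called without thinning, 249 and 39 were among them. The thinning was a single random draw and left out 1 cell of each group. The part of depth in the changed calls was not tested. Pools 4 to 7 gave 9, 10, 6 and 10 Scx-only cells and 5, 9, 8 and 3 Sox9-only cells. Pool 6 held 6.55% of all counts of the Scx-only cells, and pool 7 held 12.55% of those of the Sox9-only cells. All 40 cell indices recur in every pool, and no pair of cells held identical counts. The hind limb marker Pitx1 had 117 CPM in Scx-only and 188 CPM in Sox9-only cells, and the forelimb marker Tbx5 had 0.344 CPM in Scx-only cells and no count in Sox9-only cells. In any single cell, lists of muscle, endothelial, epithelial, red cell, immune and Schwann cell markers together took at most 0.239% of counts among Scx-only cells and 0.593% among Sox9-only cells.

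Levels of a group are summed counts of its cells as CPM, and a log2 ratio is log2 of (CPM in Scx-only + 5) over (CPM in Sox9-only + 5), which understates differences of low genes. A gene was called when this ratio was at least 1 in size, had the same direction in all 4 pools, and stayed at least 1 in size without the highest cell of the higher group. For 10577 genes counts were present in 5 or more of the 60 cells. Of these, 405 were called higher in Scx-only cells (3.83%) and 89 lower (0.841%), together 4.67%. Without pool 6, which held few Scx-only counts, 1149 were called higher and 151 lower. The size of the ratio alone was passed by 17% of genes upward and 11.9% downward. The median ratio of all genes was 0.08. No test stands behind a call, so the 405 and 89 are not read as the number of genes that differ.

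Cartilage matrix genes stood lowest of the lists in the Scx-only cells. Of 10 compared members 2 were called lower, against 0.841% of all genes, and 0 higher. A ratio below 0 was found for 9, and the median ratio was -1.98. Over the 20 members of the list, summed CPM in pools 4 to 7 was 295, 374, 779 and 919.9 in Scx-only cells, against 489, 2445, 2466 and 1762 in Sox9-only cells. The list was thus lower in the Scx-only cells of every pool, and the highest Scx-only pool stood above the lowest Sox9-only pool.

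Col2a1 (chr15:97975602-98004695), the main fibrillar collagen of cartilage, had 156, 145, 232 and 397 CPM in Scx-only cells of pools 4 to 7, against 262, 1113, 965.5 and 996 CPM in Sox9-only cells. It was lower in Scx-only cells within each pool, while pool 4 of the Sox9-only cells lay below pool 7 of the Scx-only cells. Over all cells it had 231 CPM (223 to 240) in Scx-only and 900 CPM (875 to 925) in Sox9-only cells, which is 3.89-fold lower and a log2 ratio of -1.94. Single Scx-only cells ranged from 0 to 4095 CPM with a median of 39.8, and single Sox9-only cells from 0 to 9327 CPM with a median of 237. The call of Col2a1 was lost under 3 of 15 alternatives. These were leaving out pool 5, at a ratio of -1.50, the mean of the CPM of single cells, and limits of 400 and 20 CPM.

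Col9a3 (chr2:180597790-180622189), a chain of the collagen that decorates cartilage fibrils, had 0.868, 12.46, 40.7 and 63.3 CPM in Scx-only cells of pools 4 to 7, against 2.15, 204, 223 and 179 CPM in Sox9-only cells. At 20 CPM or more it was found in 4 of 35 Scx-only and 12 of 25 Sox9-only cells. Its ratio was -2.50, and without pool 5 the call was lost at -2.07. The overlapping gene Tcfl5 had 10.2 CPM in Scx-only and 14.6 CPM in Sox9-only cells.

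Lect1, the gene of the cartilage protein chondromodulin, had no count in any Scx-only cell and 95.8 CPM (87.7 to 104) in Sox9-only cells, at least 371-fold lower in Scx-only cells against 3 counts over the group. Its counts came from 6 Sox9-only cells, and the highest of these held 56.1% of them. It was not called, since pool 4 had no count in either group; without pool 4 it was called lower at -4.59. Hapln1, which links aggrecan to hyaluronan, had 3.27 CPM in Scx-only and 56.5 CPM in Sox9-only cells. Papss2, which makes the sulphate donor for cartilage proteoglycans, had 15.2 CPM in Scx-only and 112 CPM in Sox9-only cells. Neither was called, because each had at least 1 pool in which the Scx-only cells stood higher. Aggrecan itself (Acan) was found in 4 Sox9-only cells and in 0 Scx-only cells, too few to compare.

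Cartilage transcription factors other than Sox9 leaned the same way without a call. Of 8 compared members 0 were called in either direction, where 4.67% of all genes were. A list of 8 is too short to set apart from that share. Ratios were below 0 for 6, and the median was -1.72. Sox5 had 4.05, 53.2, 116 and 107 CPM in Scx-only cells of pools 4 to 7, against 61.2, 409, 189 and 5.88 CPM in Sox9-only cells. Pool 7, with 3 Sox9-only cells, ran the other way, and without it Sox5 was called lower at -2.58. Sox6 had 6.08, 0.26, 2.63 and 44.4 CPM in Scx-only cells, against 0, 145, 118 and 91.2 CPM in Sox9-only cells. Here pool 4 ran the other way, and without it Sox6 was called lower at -2.40. Foxc1, a forkhead factor of skeletal mesenchyme, had a ratio of -2.22 and was lower in Scx-only cells in 3 of 4 pools. Runx2, a factor of bone and maturing cartilage, had -2.48, but its counts came from 3 Sox9-only cells with 68.1% in 1, and it was lower in 2 pools of 4. Trps1, a zinc finger repressor of growth plate cartilage, ran opposite with 189.6 CPM in Scx-only and 76.4 CPM in Sox9-only cells.

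**Figure D2:**
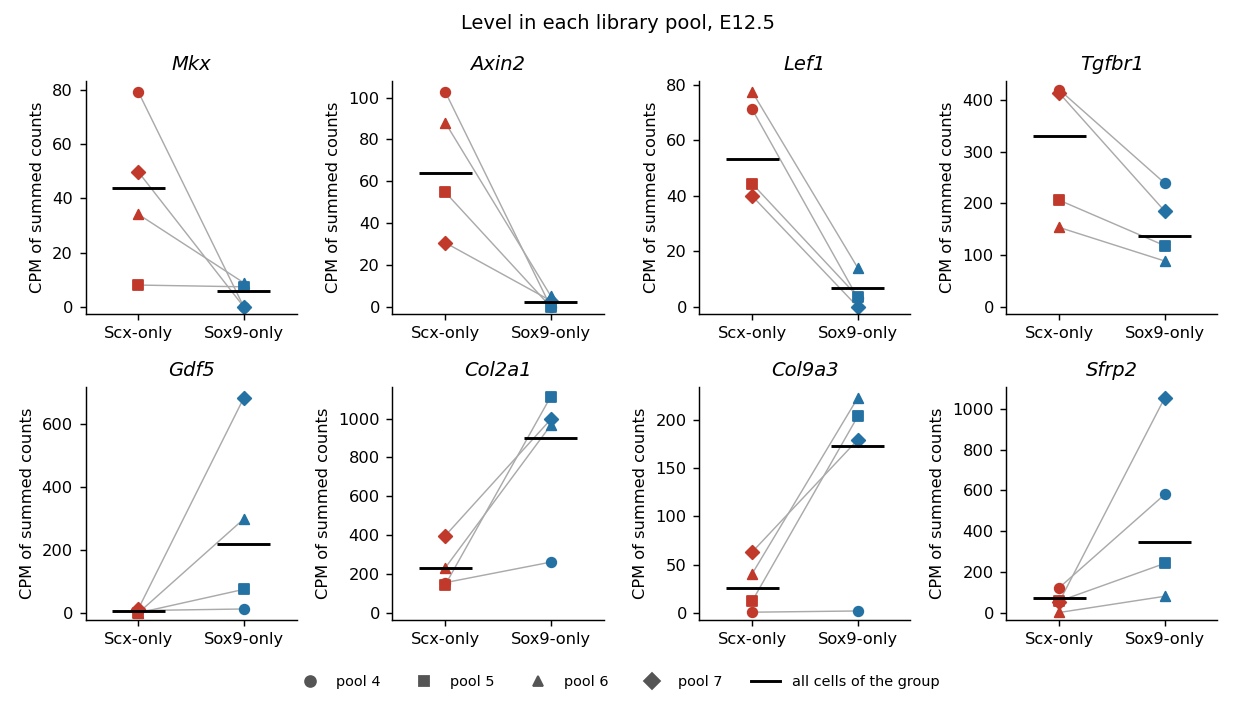
CPM of selected genes in each of the 4 library pools, in Scx-only and in Sox9-only cells, with lines joining the values of a pool and black bars for all cells of a group. Axin2 and Lef1 stood higher in the Scx-only cells of each pool, with pool ranges that did not overlap, and Gdf5 stood lower in each, also without overlap.

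Joint interzone genes held the largest called difference downward. Of 9 compared members 2 were called lower, against 0.841% of all genes, and 0 higher, and the median ratio was -0.43. Gdf5 (chr2:155941023-155945367), a ligand of the BMP family needed for joint formation, had 7.81, 0.519, 0 and 12.7 CPM in Scx-only cells of pools 4 to 7, against 12.9, 75.1, 298 and 682 CPM in Sox9-only cells. The pool ranges did not overlap, although pool 7 of the Scx-only cells and pool 4 of the Sox9-only cells nearly touched. Over all cells Gdf5 had 6.37 CPM (5.00 to 7.99) in Scx-only and 220 CPM (207 to 232) in Sox9-only cells, 34.5-fold lower with a log2 ratio of -4.30. It reached 20 CPM in 3 of 35 Scx-only and 8 of 25 Sox9-only cells, so most Sox9-only cells also lacked it.

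Sfrp2 (chr3:83766321-83774316), a secreted Wnt binding protein, had 124, 58.2, 2.63 and 54.0 CPM in Scx-only cells of pools 4 to 7, against 580.5, 243, 81.9 and 1053 CPM in Sox9-only cells. It was 4.75-fold lower in Scx-only cells, and its call was lost without pool 7, at -1.53. Bmper, a secreted BMP binding protein on the same list, had 21.7 CPM in Scx-only and 0.738 CPM in Sox9-only cells and was not called.

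By number, genes of the Wnt pathway were the list with most calls upward. Wnt ligands bind Frizzled receptors, secreted Frizzled-related proteins bind the ligands, and Axin2 and Lef1 are targets or partners of beta-catenin in the nucleus. Of 18 compared members 3 were called higher (Axin2, Wnt5b and Lef1) and 1 lower (Sfrp1), 13 had ratios above 0, and the median was 0.59. The tendon and ligament list, with 2 of 8 called higher, and the posterior Hox list, with 2 of 10, had larger shares. Over all genes 3.83% were called higher.

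Axin2 (chr11:108920349-108950783), a feedback inhibitor that beta-catenin induces, had 103, 54.8, 88.0 and 30.7 CPM in Scx-only cells of pools 4 to 7, against 0, 0, 5.22 and 2.94 CPM in Sox9-only cells. Every Scx-only pool stood above every Sox9-only pool. Summed, it had 63.8 CPM (59.3 to 68.6) in Scx-only and 2.22 CPM (1.14 to 3.87) in Sox9-only cells, 28.8-fold higher with a log2 ratio of 3.25. It reached 20 CPM in 14 of 35 Scx-only cells and in 1 of 25 Sox9-only cells. After thinning to 50000 counts a count was left in 14 of 34 Scx-only and 1 of 24 Sox9-only cells. The difference depended on the class limits: with 1 limit of 100 CPM for both genes, which gave 50 and 36 cells, the ratio was 0.07.

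Lef1 (chr3:131110471-131224356), the DNA-binding partner of beta-catenin, had 71.2, 44.4, 77.5 and 39.9 CPM in Scx-only cells of pools 4 to 7, against 3.22, 3.70, 14.1 and 0 CPM in Sox9-only cells. The pool ranges were apart, and the log2 ratio was 2.30. A single Scx-only cell held 38.4% of its counts in that group, and 9 Scx-only and 4 Sox9-only cells reached 20 CPM. Lef1 lost its call with limits of 400 and 20 CPM. Wnt5b, a ligand, had 37.3 CPM in Scx-only and 1.85 CPM in Sox9-only cells, with 6 and 1 cells at 20 CPM or more. Its call was lost under 3 of 15 alternatives, thinning to 50000 counts and limits of 100 CPM among them. With limits of 100 CPM its ratio was 0.47.

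Sfrp1 (chr8:23411502-23449632), a secreted inhibitor, had 0, 4.41, 1.31 and 43.6 CPM in Scx-only cells of pools 4 to 7, against 7.51, 48.7, 151 and 246 CPM in Sox9-only cells. It was lower in the Scx-only cells of each pool, 6.89-fold over all cells with a log2 ratio of -2.44, and kept its call under all 15 alternatives. The ligand Wnt5a had 249 CPM in Scx-only and 334 CPM in Sox9-only cells and was not called. Nkd1, another target, had 40.9 CPM in Scx-only and 10.7 CPM in Sox9-only cells and was not called.

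Among tendon and ligament genes other than Scx, 8 were compared, 2 were called higher (Mkx and Thbs2) and 1 lower (Col12a1), and the median ratio of 0.24 was close to that of all genes. The shares over all genes were 3.83% higher and 0.841% lower. Mkx (chr18:6934518-7004780), a homeobox factor of tendon, had 79.3, 8.05, 34.2 and 49.8 CPM in Scx-only cells of pools 4 to 7, against 0, 7.41, 8.87 and 0 CPM in Sox9-only cells. The values of pool 5 nearly met. Summed, Mkx had 43.7 CPM (40.0 to 47.7) in Scx-only and 5.72 CPM (3.89 to 8.12) in Sox9-only cells, 7.64-fold higher. It reached 20 CPM in 13 of 35 Scx-only cells and 2 of 25 Sox9-only cells and was called under all 15 alternatives.

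Thbs2 (chr17:14665500-14694235), a matrix protein of the thrombospondin family, had 43.1, 14.0, 47.3 and 21.4 CPM in Scx-only cells of pools 4 to 7, against 0, 0, 1.04 and 0 CPM in Sox9-only cells. These counts came from 6 Scx-only cells, and 1 Sox9-only cell held 2 counts. Without pool 6 the gene was no longer called, at 2.62. Its call was lost under 3 of 15 alternatives in all, also with limits of 400 and 20 CPM and with a count required in at least 15 cells. Col12a1 (chr9:79598991-79718831), a collagen bound to fibrils, had 1.45, 11.9, 1.31 and 2.53 CPM in Scx-only cells, against 2.15, 243, 80.4 and 17.6 CPM in Sox9-only cells. It was lower in Scx-only cells of each pool, narrowly so in pool 4. Its call was lost under 3 of 15 alternatives, thinning to 50000 counts among them. Tnmd, the tendon marker tenomodulin, was found in 3 Scx-only cells at 2.92 CPM and in 1 Sox9-only cell at 0.185 CPM, so this defining gene of differentiated tendon was near 0 in the Scx-only cells. Kera, a tendon proteoglycan, had 104 CPM in Scx-only and 55.0 CPM in Sox9-only cells, with 60.9% and 73.5% of those counts in 1 cell of each group.

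**Figure D3:**
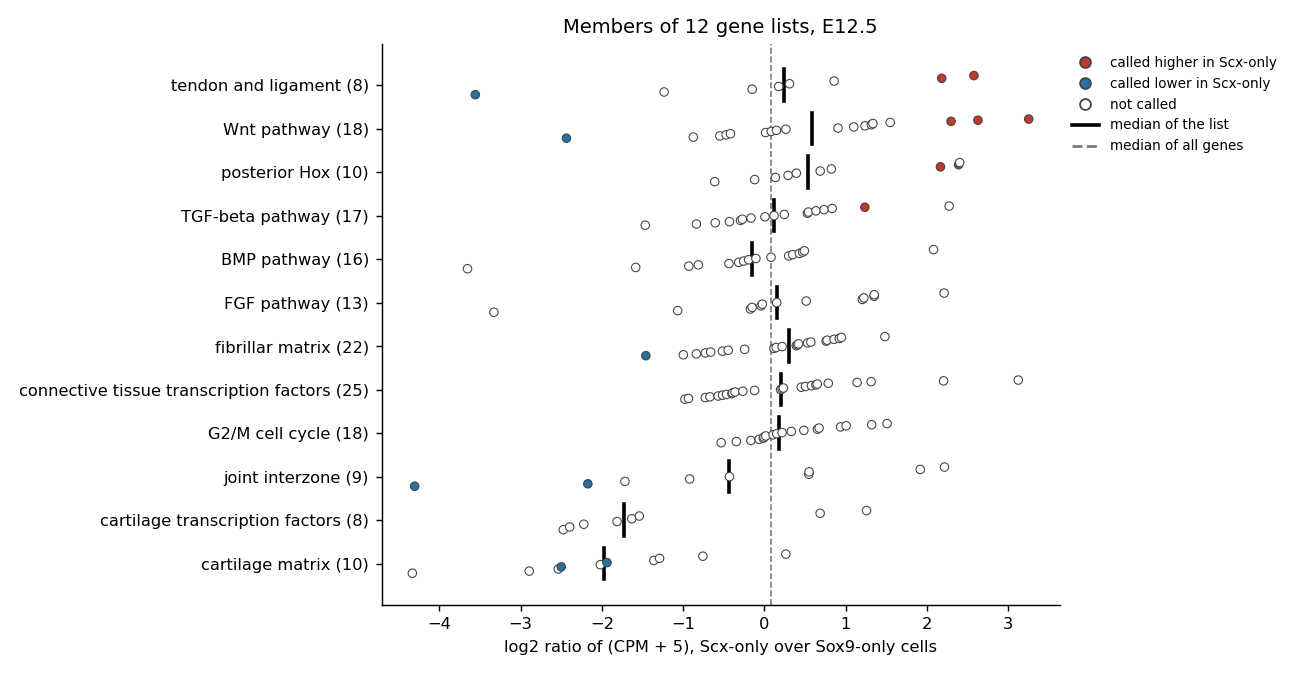
Log2 ratio of Scx-only over Sox9-only cells for each compared member of 12 gene lists (number compared in brackets), with the median of each list as a bar and the median of all genes, 0.08, as a dashed line. Filled points are called genes. The cartilage lists lie mainly left of the line, with medians of -1.98 and -1.72, and the Wnt list has its 3 highest members called.

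In the TGF-beta pathway 1 of 17 compared members was called, near the 4.67% of all genes called in either direction. Tgfbr1, the type I receptor, had 420.2, 206, 154 and 414 CPM in Scx-only cells of pools 4 to 7, against 239, 119, 88.7 and 185 CPM in Sox9-only cells. It was 2.41-fold higher over all cells, higher in each pool, with pool ranges that overlapped, and the call was lost under 6 of 15 alternatives, where the ratio was as low as 0.84. The ligand Tgfb2 had 144 CPM in Scx-only and 132 CPM in Sox9-only cells, and the type II receptor Tgfbr2 had 40.2 CPM in Scx-only and 26.0 CPM in Sox9-only cells. Neither was called. Of 16 BMP and 13 FGF pathway genes 0 were called. Fgfr3, a receptor of cartilage, had 1.12 CPM in Scx-only and 56.5 CPM in Sox9-only cells, where 1 cell held 54.6% of the counts.

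Patterning genes gave 4 calls, all higher in Scx-only cells, 2 of 20 limb bud genes and 2 of 10 posterior Hox genes. The share called higher over all genes was 3.83%. Tbx4, a hind limb T-box factor, had 193, 152, 44.7 and 38.2 CPM in Scx-only cells of pools 4 to 7, against 129, 27.0, 20.4 and 19.1 CPM in Sox9-only cells. Pool 4 was high in both groups, and the log2 ratio was 1.46. Of 20 limb bud genes the other called one was Mycn, a growth-promoting transcription factor, with 15.8 CPM in Scx-only and 1.11 CPM in Sox9-only cells. Of 10 posterior Hox genes, which set position along the limb, Hoxd9 had 22.2 CPM in Scx-only and 0.185 CPM in Sox9-only cells, and Hoxc9 had 17.5 CPM in Scx-only cells and no count in Sox9-only cells. Counts of Hoxd9 were found in 11 of 35 Scx-only and 1 of 25 Sox9-only cells, and its call was lost under 6 of 15 alternatives, thinning among them. The call of Tbx4 was lost under 3. The distal gene Hoxd13 had 439 CPM in Scx-only and 673 CPM in Sox9-only cells and was not called.

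In retinoic acid metabolism 1 of 11 compared genes was called in each direction, where 3.83% of all genes were called higher and 0.841% lower. Stra6, a receptor for the vitamin A carrier protein, had 13.9, 42.8, 17.1 and 20.0 CPM in Scx-only cells of pools 4 to 7, against 1.07, 6.88, 0.522 and 4.41 CPM in Sox9-only cells. Dhrs3, which turns retinal back to retinol, had 5.79, 29.9, 21.0 and 29.8 CPM in Scx-only cells, against 79.4, 58.7, 64.2 and 303 CPM in Sox9-only cells. The pool ranges of both genes were apart, in opposite directions, but each call was lost under 5 of 15 alternatives, with the ratio of Stra6 at 0.58 for limits of 100 CPM and that of Dhrs3 at -1.33 after thinning.

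Calls among general connective tissue genes could not be told apart from the 4.67% of all genes called in either direction. Of 22 fibrillar matrix genes only Col6a2, a chain of a microfibrillar collagen, was called, with 64.4 CPM in Scx-only and 186 CPM in Sox9-only cells, and that call was lost under 5 of 15 alternatives. Col1a1, the main collagen of tendon and bone, had 259 CPM in Scx-only and 141 CPM in Sox9-only cells, higher in 2 pools and lower in 2. Of 25 connective tissue transcription factors 0 were called, Prrx1, a factor of limb mesenchyme, among them with 849 CPM in Scx-only and 382 CPM in Sox9-only cells. The median ratio was 0.09 over 18 G1/S genes, 0.18 over 18 G2/M genes and -0.10 over 82 ribosomal protein genes, with 0 calls in all of them. Single calls fell on Dnajb1, a heat shock co-chaperone (log2 ratio 1.62), and Pfkl, an enzyme of glycolysis (-1.27, lost under 5 of 15 alternatives).

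Of the endothelial list 0 of 3 compared members were called, and its summed CPM in pools 4 to 7 was 74.1, 27.5, 14.5 and 2.53 in Scx-only cells, against 0, 800.3, 42.8 and 35.3 in Sox9-only cells. One Sox9-only cell of pool 5 held 99.0% of the Cdh5 counts of its group. Its part in the other values of that pool was not tested. Muscle, epithelial, immune and Schwann cell markers gave 0 calls, where 4.67% of all genes were called in either direction. Their compared members were 5 muscle progenitor, 11 differentiated muscle, 5 epithelial, 1 immune and 3 Schwann cell genes. Lists this short, the endothelial one included, cannot be told apart from that share. No red cell gene was found in enough cells to compare. No cell of either class held over 1% of its counts in these lists together.

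The largest called ratios upward among broadly found genes belonged mostly to genes of no list. Lig3, a DNA ligase, had 142 CPM in Scx-only and 3.32 CPM in Sox9-only cells and a ratio of 4.14, but it overlaps Rffl on the other strand, which had 95.4 CPM in Scx-only and 3.88 CPM in Sox9-only cells. Rab22a, a small GTPase of endosomes, had 108 CPM in Scx-only and 1.48 CPM in Sox9-only cells. Dsel, related to an enzyme that makes dermatan sulphate, had 76.4, 87.7, 183 and 26.1 CPM in Scx-only cells of pools 4 to 7, against 2.15, 0.529, 2.61 and 0 CPM in Sox9-only cells. Apoe, a lipid carrier, had 57.2 CPM in Scx-only and 0.369 CPM in Sox9-only cells. Its Scx-only counts came from 11 of 35 cells, with 30.5% in 1 cell. The call of Apoe was lost under 2 of 15 alternatives, thinning to 50000 counts among them. Rab22a and Dsel each had a count in 15 of 35 Scx-only cells, and the median Scx-only cell had 0 CPM of each of these 3 genes. Downward, Phtf2 had 28.1, 2.08, 63.1 and 0.562 CPM in Scx-only cells of pools 4 to 7, against 199.6, 171, 112 and 83.8 CPM in Sox9-only cells. Bnip1, a protein of the endoplasmic reticulum, had 14.0 CPM in Scx-only and 120.1 CPM in Sox9-only cells, with 76.7% of the Scx-only counts in 1 cell.

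Scleraxis binds E-boxes, so promoters of called genes were searched for CANNTG, which reads the same on both strands. They were also searched on both strands for ACAATG and ACAAAG, core letters bound by Sox factors. RefSeq promoters (GRCm38.p6, 250 bases before to 50 after the start) were at hand for 294 of 405 genes called higher, 61 of 89 called lower and 7539 of all 10577. CANNTG was present in 63.6% of promoters of genes called higher, 62.3% of those called lower and 61.2% of all. ACAATG was present in 8.50% of promoters of genes called higher, 8.20% of those called lower and 6.92% of all. ACAAAG was present in 10.2% of promoters of genes called higher, 9.84% of those called lower and 13.0% of all. The shares among called genes were thus near those of all genes. The promoters of Thbs2 (chr17:14694213-14694512, minus strand, 2 matches) and Pfkl (chr10:78009758-78010057, minus strand, 3 matches) are shown as examples of a list member called higher and one called lower, with CANNTG in capitals. Each is the window at the start that the RefSeq table lists first.
Thbs2: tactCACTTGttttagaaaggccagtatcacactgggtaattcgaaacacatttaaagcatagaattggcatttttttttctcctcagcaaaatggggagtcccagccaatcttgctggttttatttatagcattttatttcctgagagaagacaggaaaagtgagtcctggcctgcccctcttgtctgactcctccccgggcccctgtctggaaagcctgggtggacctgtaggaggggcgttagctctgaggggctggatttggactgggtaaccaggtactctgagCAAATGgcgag
Pfkl: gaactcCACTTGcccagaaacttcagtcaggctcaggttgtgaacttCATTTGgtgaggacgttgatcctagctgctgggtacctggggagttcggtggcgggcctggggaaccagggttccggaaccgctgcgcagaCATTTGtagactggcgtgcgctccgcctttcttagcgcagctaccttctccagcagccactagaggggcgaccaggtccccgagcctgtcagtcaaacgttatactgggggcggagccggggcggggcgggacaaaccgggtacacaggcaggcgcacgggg
A match is a description of letters only.

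Within each group the genes were not shared by all cells. Of 5 cartilage collagen genes (Col2a1, Col9a1, Col9a2, Col9a3 and Col11a1), all 5 reached 20 CPM in 1 of 35 Scx-only and 6 of 25 Sox9-only cells, and none did in 5 Scx-only and 1 Sox9-only cells. At 1 gene or none stood 17 Scx-only and 10 Sox9-only cells. The same limit of 20 CPM was used for pairs of genes. All 12 Sox9-only cells that reached it for Col9a3 also reached it for Col2a1. Gdf5 and Col2a1 reached it together in 5 Sox9-only cells, while 4 reached it for neither. Among Scx-only cells, Mkx reached 20 CPM in 13 and Axin2 in 14, both in 6 and neither in 14. Mkx and Thbs2 reached it together in 2 Scx-only cells.

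**Figure D4:**
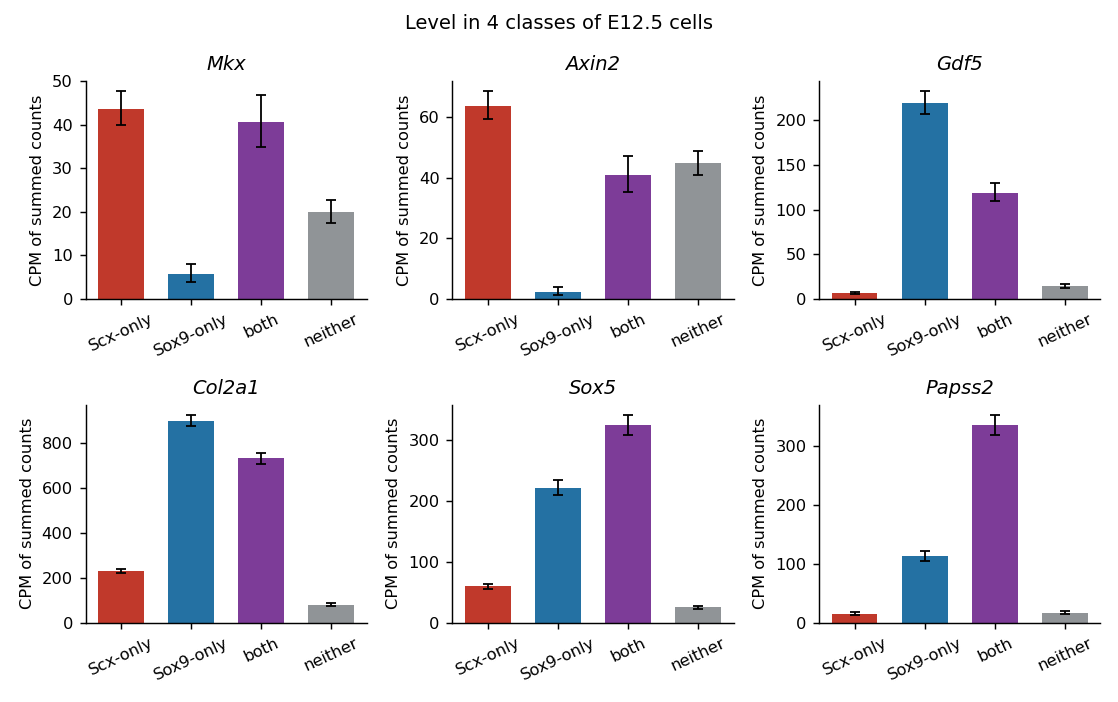
CPM of summed counts (axis from 0) of 6 genes in the 4 classes of E12.5 cells, as bars with 95% Poisson intervals as whiskers. Gdf5, Col2a1, Sox5 and Papss2 stood above the Scx-only level in the cells holding both genes, and Mkx in those cells, at 40.5 CPM, was close to its Scx-only level of 43.7 CPM.

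Cells holding both genes, and cells holding neither, were not used in the comparison. For Col2a1, the both class had 732 CPM and the neither class 80.3 CPM, beside 231 CPM in Scx-only and 900 CPM in Sox9-only cells. Sox5 in the both class, at 323 CPM, stood above Scx-only cells at 59.3 CPM and Sox9-only cells at 221 CPM. Papss2 likewise had 335 CPM in the both class, above both groups. Gdf5 had 119 CPM in the both class and 14.5 CPM in the neither class. These genes of the cartilage and joint lists were thus not low wherever Scx was high. Mkx had 40.5 CPM in the both class, near its 43.7 CPM in Scx-only cells and above the 5.72 CPM of Sox9-only cells. Axin2 had 41.0 CPM in the both class and 44.8 CPM in the neither class, so cells with neither gene also stood above the 2.22 CPM of Sox9-only cells. Lef1 had 5.36 CPM in the both class, near Sox9-only cells at 6.83 CPM, and 38.4 CPM in the neither class. Thbs2 had 0.644 CPM in the both class and 9.49 CPM in the neither class. Summed over the 20 cartilage matrix genes, the both class had 1925 CPM and the neither class 346 CPM, against 544 CPM in Scx-only and 2030 CPM in Sox9-only cells. Of the 405 genes called higher, the neither class was closer to the Scx-only than to the Sox9-only level for 292 (72.1%), and the both class for 264 (65.2%). Of the 89 called lower, the neither class was closer to the Scx-only level for 53 (59.6%), and the both class for 50 (56.2%). The same shares over all compared genes were not computed. These shares are therefore not read as a likeness of either class to the Scx-only cells.

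The same limits were applied to cells of the other 2 stages of the table. At E10.5 they gave 3 Scx-only and 8 Sox9-only cells, too few to describe. At E15.5 they gave 17 Scx-only and 37 Sox9-only cells, from a sample that the E12.5 choice had not used. There 1.21% of 10686 genes were called higher and 5.02% lower. At both stages more genes were called higher in the group with more cells, which also had more summed counts. Scx-only and Sox9-only cells held 11624489 and 5418484 counts at E12.5, and 3960762 and 9051785 at E15.5. The parts of cell number and counts in this were not tested. Of 388 of the 405 genes called higher at E12.5 that could be compared, 176 had a ratio above 0 at E15.5, where 45.7% of all genes did, 57 (against 12.6% of all genes) passed a ratio of 1, and 81 passed -1. Of 87 of the 89 called lower, 44 had a ratio below 0, where 54.3% of all genes did, 22 (against 19.4% of all genes) passed -1, and 13 passed 1. As a whole the called genes therefore did not keep their direction at E15.5 more than all genes did.

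Some listed genes did keep it. Mkx was called higher at both stages, with ratios of 2.18 at E12.5 and 1.93 at E15.5. Thbs2, the other tendon gene called higher at E12.5, did not: it had 148 CPM in Scx-only and 164 CPM in Sox9-only cells at E15.5, a ratio of -0.14. Col2a1 had -1.94 at E12.5 and -3.56 at E15.5, Col9a3 -2.50 and -5.79, and Sfrp1 -2.44 and -2.30, each called lower at both stages. The median of the cartilage matrix list was -1.98 at E12.5 and -2.80 at E15.5, where 9 of 18 compared members were called lower. Sox5 was called lower at E15.5 with a ratio of -2.30, and Gdf5 had -3.49 without a call. Tnmd, near 0 at E12.5, had 899 CPM in Scx-only and 101 CPM in Sox9-only cells at E15.5, and 4 of 11 tendon genes were called higher. The Wnt list ran the other way, with a median of 0.59 at E12.5 and -0.73 at E15.5 and 5 of 18 members called lower at E15.5. Markers of some other cell types, epithelial ones among them, were also higher in the Sox9-only cells of E15.5. Muscle progenitor markers ran the other way, with 102 CPM in Scx-only and 62.0 CPM in Sox9-only cells. So did red cell markers, with 23.0 CPM in Scx-only and 2.98 CPM in Sox9-only cells. Of 8 compared epithelial genes 3 were called lower in Scx-only cells, and the list's summed CPM in pools 8, 9, 11 and 12 was 28.1, 41.5, 21.4 and 114 in Scx-only cells, against 1275, 2795, 66.2 and 21.0 in Sox9-only cells. Krt14, a keratin, had 10.9 CPM in Scx-only and 244 CPM in Sox9-only cells, and 4 Sox9-only cells held over 0.5% of their counts in that list. Without all cells over 0.5% in the lists of other cell types, 16 Scx-only and 31 Sox9-only cells remained, Krt14 had 9.40 CPM in Scx-only and 9.71 CPM in Sox9-only cells, and the median of the Wnt list was -0.88. Col12a1, called lower at E12.5, had 225 CPM in Scx-only and 159 CPM in Sox9-only cells at E15.5 and was not called. Dhrs3 was called lower at both stages, at -1.88 and -1.90.

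**Figure D5:**
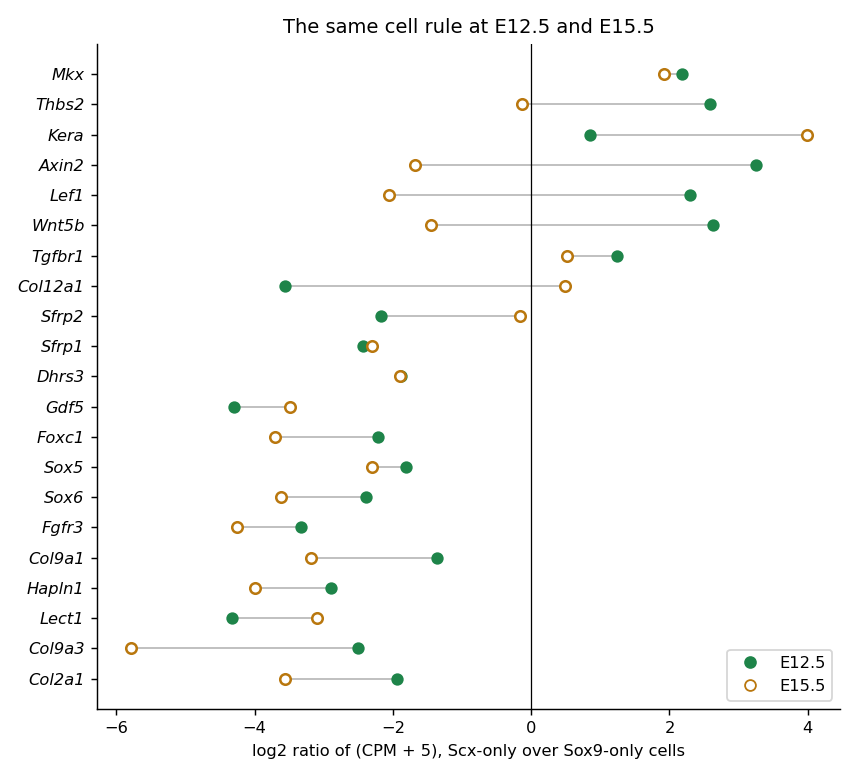
Log2 ratio of Scx-only over Sox9-only cells at E12.5 and at E15.5 for selected genes. Mkx lies right of 0 at both stages, Col2a1, Col9a3 and Sfrp1 lie left of 0 at both, and Axin2 lies at 3.25 at E12.5 and at -1.68 at E15.5.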

How the data were processed

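The deposited values are raw counts of reads per gene and cell, which the authors made with Bowtie2 and featureCounts on mm10 per the submitters' processing notes; versions, annotation, strand setting and use of molecular identifiers are not given in sources used here. The table held 22738 entries for 22092 symbols in 480 cells. Symbols listed more than once were kept once where identical and otherwise summed. The series' remaining 1120 samples are not analysed here. Stage and pool came from the labels.

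Counts were summed over the cells of a class and divided by their total (CPM); log2 ratios used 5 CPM as pseudocount. Genes present in 5 or more of the 60 cells were compared, and Scx and Sox9 were left out of the counts of called genes. Pools entered with at least 3 cells of both classes; at E15.5 pools 8, 9, 11 and 12 did. Intervals are exact Poisson for sums. Thinning drew 50000 counts per cell without replacement, and 1 Scx-only and 1 Sox9-only cell were shallower. With no replicates, no test was made. Doublets were not called. CPM is not scaled by gene length, so levels are compared between groups only. The method was tested on simulated data. The outcome is not given here and is not used as support for any call.

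The classes, the 30 gene lists (454 symbols, 5 matched by an older symbol, 1 not matched) and the call rule were chosen with earlier results of these data known. Genes named were the 15 largest called ratios in each direction among genes that reached 30% of cells and 50 CPM in the higher group, without ribosomal protein and predicted genes, from each list up to 4 members each way that reached 20 CPM, and a set listed with the design. Mycn, Hoxc9, Bmper, Nkd1, Tbx5 and members that fill out a list's count were chosen after their values were seen, as were the limit of 20 CPM per cell, the pairs of genes and the printed promoters. Coordinates are from the GENCODE annotation of GRCm38 (mm10). Python 3.11.15, numpy 2.4.6, pandas 2.3.3, scipy 1.17.1 and matplotlib 3.10.9 were used.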

Additional observations from a re-analysis of the deposited data

Results flagged for a closer look

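Axin2 ran in opposite directions at the 2 stages. At E12.5 it had 63.8 CPM in Scx-only and 2.22 CPM in Sox9-only cells (log2 ratio 3.25), higher in the Scx-only cells of all 4 pools. At E15.5 it had 23.0 CPM (18.5 to 28.2) in Scx-only and 84.7 CPM (78.8 to 90.9) in Sox9-only cells (log2 ratio -1.68). In pools 8, 9, 11 and 12 of E15.5 it had 51.6, 15.4, 21.4 and 0 CPM in Scx-only cells, against 126, 50.4, 72.8 and 82.2 CPM in Sox9-only cells, lower in each. Epithelial markers were also higher in these Sox9-only cells, Krt14 with 10.9 CPM in Scx-only and 244 CPM in Sox9-only cells; of the 4 Sox9-only cells with over 0.5% of their counts in that list, 1 held an Axin2 count. Without the cells over 0.5% in lists of other cell types, Axin2 at E15.5 had 23.8 CPM in 16 Scx-only and 104 CPM in 31 Sox9-only cells (log2 ratio -1.93). Each stage was 1 sample, and the difference between stages was not tested.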

How the results depend on the processing

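No paired analysis was possible because E12.5 was 1 sample and its pools held different cells of both classes. The counts of called genes, 405 higher and 89 lower, moved by over 1.5 times under these alternatives: 200 higher and 52 lower with a pseudocount of 20 CPM, and 863 higher and 246 lower with limits of 400 and 20 CPM, which left 22 and 11 cells and 2 pools. Leaving out 1 pool gave 510 to 1149 higher and 151 to 251 lower, with 681 higher without pool 5, 1149 higher without pool 6, and 209, 165, 151 and 251 lower without pools 4, 5, 6 and 7. Which genes were called also changed where the counts moved less. Of the 405 and 89, 169 and 36 were called with limits of 100 CPM, 249 and 39 after thinning to 50000 counts, and 211 and 27 with limits of 400 and 20 CPM. Another 4 alternatives were added after seeing the data. Without the condition on the highest cell 148 were called lower, without the condition on the pools 1031 higher and 427 lower, and with the highest cell left out in both groups 500 higher and 124 lower; the fourth left out E15.5 cells with markers of other cell types, and Axin2 and the Wnt list kept their direction there. Fewer conditions leave more genes called by construction. Leaving out a pool drops a condition too, but it also removes cells and changes the levels, so calls were lost as well. Of the 405 and 89, 316 and 54 were kept without pool 4, and 311 and 69 without pool 7. More genes were called higher than lower under every alternative. Of 43 named called genes 12 kept their call under all 15 alternatives. Ddx26b reversed, to 0.70 with limits of 400 and 20 CPM; the cause was not tested. Of 435 medians of lists 23 moved. Depth and cell number limit the low genes, which rest on few cells, as Thbs2 did on 6 Scx-only cells.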
